A study of Mus musculus with 18 samples.

Results

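Immediate early genes are the genes a cell transcribes within minutes of a stimulus, before any new protein is made. The set described here holds 10 of them, *Fos*, *Fosb*, *Jun*, *Junb*, *Egr1*, *Atf3*, *Ier2*, *Ier3*, *Btg2*, and *Nr4a1*, chosen by name from the 78239 genes listed for each kidney. Each gene was followed across 18 libraries of 4 groups and between single libraries, and 8 of the 10 had at least 10 counts in every library. All 18 mice were outbred wild-type CD-1 offspring aged 6 wk, and 1 poly(A) library was made for each from a piece of the left kidney. The 5 low protein (LP) males and 5 LP females were born to dams fed 8% protein through gestation and lactation, and the 5 normal protein (NP) males and 3 NP females to dams fed 18% protein. All of the mice ate the NP diet after weaning and were injected with cationic ferritin, an iron-loaded protein that labels glomeruli for MRI. Adult mice of the study also had a GFR measurement, but which of the sequenced mice did is not given in the sources used here. Kidneys of males were taken 90 min after the last injection and those of females 24 h after it, so sex and time after injection cannot be told apart. The paper states that mice were euthanized with tribromoethanol and flushed with saline through the heart. The artery of the left kidney was then clamped before formalin was run in and the kidneys were removed. The part of this handling in the levels of these genes was not tested. The labels give 1 mouse per library and do not give its litter, so mice of a group may share a litter.

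The first genes to respond encode mostly transcription factors. FOS and JUN proteins pair to form AP-1, EGR1 and NR4A1 bind their own DNA elements, and other members feed back on growth, survival, or RNA decay. Kinase cascades switch these genes on through factors already bound at their promoters, and their short-lived transcripts fall again soon after. In the kidney they are known to respond to ischemia, injury, and growth factors.

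The LP and NP groups overlapped for each of the 10 genes in each sex, while single kidneys of 1 group lay far apart. The summed level of the 10 genes ran from 113 to 407 CPM, the reads counted on a gene scaled to a fixed library total. None of the tested members passed the test for maternal diet in males, in females, or for a difference between the sexes in the diet effect. Between males and females, the lower *Ier3* level of males came nearest to the threshold, and it passed in some of the alternative fits. Members rose and fell together from one kidney to the next, with a median Pearson's r of pairs of 0.669 in males and 0.617 in females. The female value takes in the difference between 3 libraries that stood apart, described below, and the other 5 females, whose own median was 0.325. Without the 2 libraries farthest from the median of the earlier-named gene of each pair, the median was 0.367 in males and 0.463 in all females. *Fos* and *Egr1* were the closest pair in males, and *Junb* and *Btg2* in females.

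Depth ran from 14050486 to 23562411 reads on genes. Markers of proximal tubule, thick ascending limb, distal tubule, collecting duct, and podocytes were all present in each library, as the kidney label implies, while *Cyp11b1* and *Cyp11b2*, the defining adrenal enzymes, had 0 counts in all of them. The 5 adrenal markers summed to 0.967 to 4.499 CPM, including *Star*, a cholesterol transport protein, with group means of 2.37 to 3.37 CPM. Of the females, LP females 1 and 2 and NP female 3 stood apart from the rest. Their 10 interferon-response genes summed to 151 to 226 CPM, against 920 to 3421 CPM in the other 5 females. Their 10 glucocorticoid-response genes summed to 955 to 1152 CPM, against 2022 to 2878 CPM, and 10.4% to 16.5% of their counts were mitochondrial, against 6.74% to 8.70%. The edgeR comparisons of females, and of females with males, were also made without these 3 libraries. Among males, LP male 4 had the highest summed level of 6 adipocyte markers, 90.8 CPM against 4.01 to 52.0 CPM in the other 9 males, and of 6 tubular injury markers, 765 CPM against 328 to 698 CPM. In pieces of whole tissue, more cells that express a gene and more RNA per cell cannot be told apart.

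Levels between genes were compared as CPM per kilobase of exon. By the median of the 18 libraries, *Junb* ranked first at 16.6 CPM per kilobase, followed by *Ier2* at 14.99, *Jun* at 14.6, and *Ier3* at 13.5. These 4 overlapped in range across libraries, and their order was within that spread. *Btg2* at 5.15, *Egr1* at 4.397, and *Atf3* at 4.33 CPM per kilobase formed a middle tier whose ranges also overlapped. *Fos* followed at 2.91 and *Nr4a1* at 0.554, and *Fosb* was lowest at 0.0472 CPM per kilobase. The value of *Nr4a1* was divided by 10903 bases of exon, the longest annotated total in the set.

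**Figure D1:**
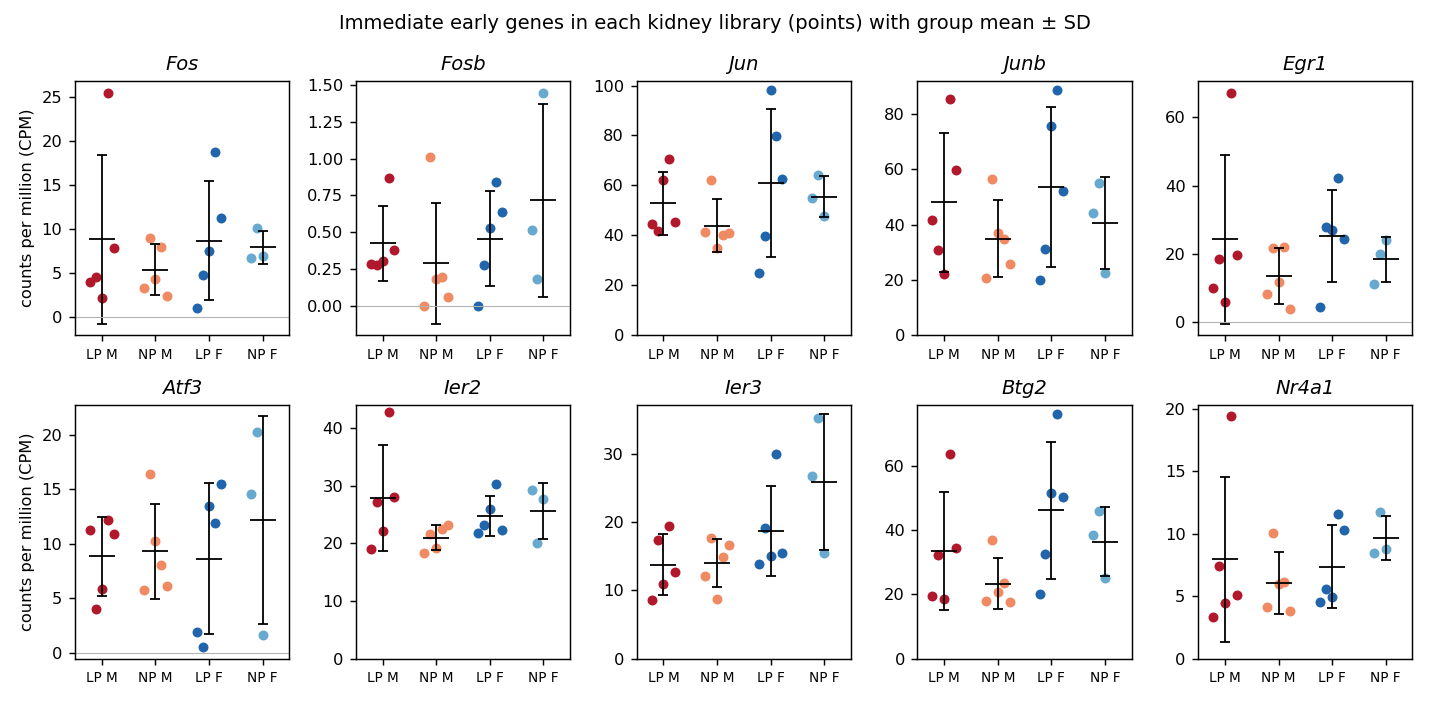
Level of each immediate early gene in CPM (linear axis, a separate scale per gene) in LP males (LP M, n = 5), NP males (NP M, n = 5), LP females (LP F, n = 5), and NP females (NP F, n = 3). Points are single libraries ordered by replicate, and bars are the group mean ± SD; the groups overlap for every gene, and LP male 4 holds the highest value of *Fos* (25.5 CPM), *Egr1* (67.3 CPM), *Ier2* (42.8 CPM), and *Nr4a1* (19.4 CPM).

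The AP-1 genes come first. *Fos* (chromosome 12, 85520658 to 85524047, plus strand, GRCm39) encodes the AP-1 subunit whose transcript is the classic marker of recent stimulation. In LP males 1 to 5, *Fos* was at 3.99, 4.56, 2.13, 25.5, and 7.83 CPM, and in NP males 1 to 5 at 3.26, 8.96, 4.31, 7.90, and 2.42 CPM. In LP females 1 to 5 it was at 1.01, 4.79, 7.51, 18.8, and 11.3 CPM, and in NP females 1 to 3 at 6.73, 10.1, and 6.98 CPM. LP male 4 was the highest of the 18 and LP female 1 the lowest, 25.2-fold apart, and both diet groups overlapped in each sex. The mean was 8.80 ± 9.56 CPM (SD, n = 5) in LP males and 5.37 ± 2.90 CPM (SD, n = 5) in NP males, a log2 difference of 0.69 with a standard error (SE) of 0.58 in edgeR's quasi-likelihood test. Without LP male 4 that difference was -0.21. In females the edgeR difference was 0.16 (SE 0.71), while the difference of mean log2 normalized counts was -0.37, so the direction depended on how the libraries were averaged.

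*Fosb* (chromosome 7, 19036621 to 19043976, minus strand) encodes a second FOS subunit and was close to the detection limit. Its counts ran from 0 in NP male 1 and LP female 1 to 21 in NP female 3, or from 0 to 1.45 CPM. A count of 0 allows a level of up to 0.195 CPM in NP male 1 and 0.152 CPM in LP female 1, from counting error alone. The gene missed the minimum of 10 counts in every comparison. With the exact two-sided permutation test of log2 normalized counts, *Fosb* gave p = 0.183 in males and p = 0.625 in females.

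*Jun* (chromosome 4, 94937271 to 94940459, minus strand) encodes the partner of FOS in AP-1. LP males 1 to 5 had 44.4, 41.9, 62.0, 70.4, and 45.3 CPM of *Jun*, and NP males 1 to 5 had 41.4, 62.0, 35.1, 40.2, and 40.8 CPM. LP females 1 to 5 had 24.9, 39.7, 98.1, 79.9, and 62.3 CPM, and NP females 1 to 3 had 54.7, 64.2, and 47.6 CPM. The 5 LP females thus spanned both the lowest and the highest *Jun* level of the series, with the NP females inside that range. The edgeR difference LP minus NP was 0.25 (SE 0.17) in males and 0.16 (SE 0.42) in females on the log2 scale.

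*Junb* (chromosome 8, 85701113 to 85705359, minus strand) encodes a JUN family subunit that can act against JUN. LP males 1 to 5 had 41.8, 30.9, 22.2, 85.6, and 59.7 CPM, and NP males 1 to 5 had 20.5, 56.6, 37.0, 35.0, and 25.7 CPM. LP females 1 to 5 had 20.1, 31.3, 75.9, 88.6, and 52.2 CPM, and NP females 1 to 3 had 44.3, 55.3, and 22.4 CPM. LP female 4 and LP male 4 were highest, and the diet groups overlapped in each sex. The *Junb* difference was 0.43 (SE 0.33) in males and 0.44 (SE 0.50) in females. Exons of *Junb* share 173 bases with *Prdx2* on the opposite strand, and the unstranded counting leaves out reads that lie on exons of 2 genes. The same holds for 528 bases of *Jun*, 396 of *Ier3*, 898 of *Btg2*, and 656 of *Nr4a1* that overlap noncoding genes.

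*Egr1* (chromosome 18, 34992876 to 34998049, plus strand) encodes a zinc finger factor and is a standard reporter of ERK activity. LP males 1 to 5 had 10.04, 18.6, 6.04, 67.3, and 19.6 CPM of *Egr1*, and NP males 1 to 5 had 8.14, 21.6, 11.8, 22.1, and 3.96 CPM. LP females 1 to 5 had 4.56, 28.0, 27.1, 42.2, and 24.4 CPM, and NP females 1 to 3 had 11.3, 19.9, and 24.1 CPM. LP male 4 was again far above every other library, and the highest and lowest were 16.99-fold apart. In males *Egr1* had the largest positive diet difference of the 9 tested members, 0.82 (SE 0.59) on the log2 scale, and without LP male 4 the difference was 0.01 (SE 0.47). In females it was 0.45 (SE 0.58).

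*Nr4a1* (chromosome 15, 101151980 to 101172681, plus strand) encodes the orphan nuclear receptor NUR77. It lay between 3.35 and 19.4 CPM in males, with medians of 5.13 CPM in LP and 5.95 CPM in NP males, and LP male 4 was the highest. In females it lay between 4.51 and 11.7 CPM, with medians of 5.56 CPM in LP and 8.77 CPM in NP females, and 3 of the 5 LP females were below every NP female. The *Nr4a1* difference LP minus NP was 0.38 (SE 0.43) in males and -0.38 (SE 0.37) in females, and the exact two-sided permutation test gave p = 0.794 and p = 0.304. The test of the difference between the sexes gave -0.75 (SE 0.63) with edgeR and an adjusted p of 0.977.

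*Atf3* (chromosome 1, 190902493 to 190950241, minus strand) encodes a stress-induced repressor of the ATF/CREB family. LP males 1 to 5 had 11.3, 4.00, 5.84, 12.2, and 10.9 CPM of *Atf3*, and NP males 1 to 5 had 5.79, 16.4, 10.3, 8.03, and 6.10 CPM. LP females 1 to 5 had 1.87, 0.496, 13.4, 11.95, and 15.5 CPM, and NP females 1 to 3 had 14.6, 20.3, and 1.66 CPM. The 3 low values of 9 to 37 counts belong to LP females 1 and 2 and NP female 3, the libraries that stood apart, and no other library was below 4.00 CPM. Because of the 9 counts in LP female 2, *Atf3* was left out of the 3 edgeR comparisons that used all 8 females. In males the difference was -0.10 (SE 0.33), and in females the exact two-sided permutation test gave p = 0.518 for a mean log2 difference of -0.72.

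*Jun*, *Junb*, and *Btg2* also lay lower in LP females 1 and 2 and NP female 3 than in each of the other 5 females. For *Jun* the ranges were 24.9 to 47.6 CPM and 54.7 to 98.1 CPM, for *Junb* 20.1 to 31.3 CPM and 44.3 to 88.6 CPM, and for *Btg2* 20.2 to 32.4 CPM and 38.3 to 75.9 CPM. Of the 8 members that reached 10 counts throughout, these 3 did not overlap, beside 11.2% of the 12665 such genes that lay lower without overlap and 12.2% that lay higher. *Atf3*, which missed that minimum, did not overlap either. *Fos*, *Fosb*, *Egr1*, *Ier2*, *Ier3*, and *Nr4a1* overlapped between these libraries. The 3 libraries were set apart with the levels in these same data known, so no test was made. The part that the interferon, glucocorticoid, and mitochondrial levels have in these values was not tested.

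*Ier2* (chromosome 8, 85387960 to 85389483, minus strand) encodes a small nuclear regulator and was the steadiest member. LP males 1 to 5 had 19.1, 27.1, 22.1, 42.8, and 28.1 CPM of *Ier2*, and NP males 1 to 5 had 18.3, 21.7, 19.2, 22.5, and 23.2 CPM. Of the 5 LP males, 3 were above every NP male and 2 were inside their range, while LP females at 21.8 to 30.2 CPM and NP females at 20.0 to 29.2 CPM covered the same levels. In males *Ier2* was 0.39 higher in LP on the log2 scale (SE 0.18), and edgeR gave it an unadjusted p of 0.0488 and an adjusted p of 0.9996. Without LP male 4 the difference was 0.20, and the exact two-sided permutation test over all 10 males gave p = 0.119.

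*Ier3* (chromosome 17, 36132568 to 36133815, plus strand) encodes an early response protein that acts on cell survival. In LP males 1 to 5 it was at 8.61, 17.3, 10.9, 19.4, and 12.6 CPM, and in NP males 1 to 5 at 12.2, 17.6, 8.80, 14.8, and 16.6 CPM. In LP females 1 to 5 it was at 13.9, 19.2, 14.97, 29.97, and 15.4 CPM, and in NP females 1 to 3 at 26.8, 35.3, and 15.4 CPM. Diet groups overlapped within each sex, 5 of 10 males were below every female, and 3 of 8 females were above every male. The LP minus NP difference was -0.04 (SE 0.23) in males and -0.45 (SE 0.32) in females.

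*Btg2* (chromosome 1, 134002908 to 134015033, minus strand) encodes an antiproliferative protein that recruits the deadenylase which shortens poly(A) tails. LP males 1 to 5 had 19.4, 32.1, 18.5, 63.7, and 34.3 CPM of *Btg2*, and NP males 1 to 5 had 17.9, 36.9, 20.8, 23.5, and 17.5 CPM. LP females 1 to 5 had 20.2, 32.4, 51.6, 75.9, and 50.3 CPM, and NP females 1 to 3 had 38.3, 46.0, and 24.9 CPM. LP female 4 and LP male 4 were highest, as for *Junb*, and the diet groups overlapped in each sex. The difference was 0.50 (SE 0.31) in males and 0.37 (SE 0.41) in females.

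The first comparison asks whether maternal diet left a difference in these genes at 6 wk. In males 9 members were tested, 7 were higher and 2 lower in LP, and 0 were called at an adjusted p under 0.05 and at least 1.5-fold in edgeR, beside 0.0379% of the 13181 genes tested. At an unadjusted p under 0.05 the count was 1 of 9, *Ier2*, beside 3.84% of all genes. The median log2 difference of the members was 0.39, and that of all genes was -0.0039. In males without LP male 4, the differences of *Fos*, *Atf3*, *Ier3*, and *Nr4a1* were below 0 and those of *Jun*, *Junb*, *Egr1*, *Ier2*, and *Btg2* were between 0.01 and 0.20. DESeq2's Wald test and limma-voom with sample quality weights also called 0 of the 9.

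In females 8 members were tested, 5 were higher and 3 lower in LP, and 0 were called, beside 0% of 13510 genes with edgeR and 9 genes with DESeq2, none of them a member. At an unadjusted p under 0.05 the count was 0 of 8, beside 4.17% of all genes, and the adjusted p-values of the members ran from 0.886 to 0.971 in edgeR. The median difference was 0.16 for the members and -0.013 for all genes. The 95% interval of *Fos*, from -1.43 to 1.75 on the log2 scale, and that of *Egr1*, from -0.84 to 1.75, leave room for a difference of either sign. Without LP females 1 and 2 and NP female 3, which leaves 3 LP and 2 NP females, 9 members were tested and 0 were called, beside 0.00705% of the 14183 genes tested. In that fit *Egr1* was at 1.10 (SE 0.34), *Jun* at 0.52 (SE 0.22), *Junb* at 0.63 (SE 0.26), and *Btg2* at 0.59 (SE 0.24), each with an adjusted p of 0.972 in edgeR. Of the 9, 3 had an unadjusted p under 0.05 there, namely *Egr1*, *Junb*, and *Btg2*, beside 4.44% of all genes. When the diet effects of females and males were set against each other, 0 of 8 members were called, beside 0.0158% of 12665 genes, and 0 of 8 had an unadjusted p under 0.05, beside 4.02%.

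**Figure D2:**
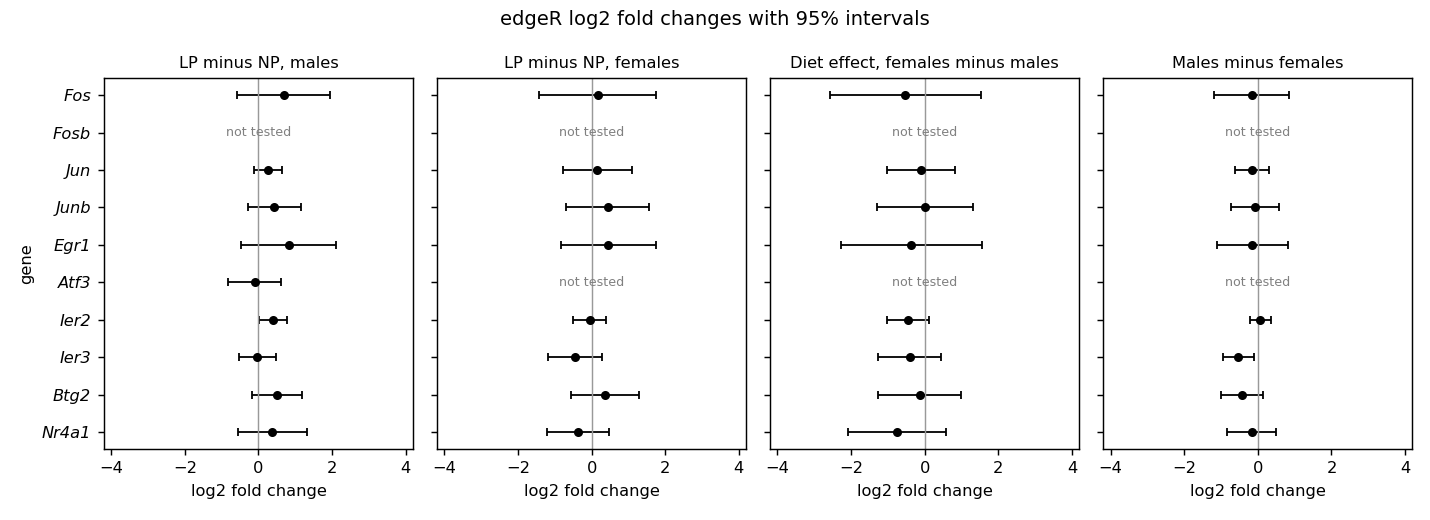
Difference of each tested gene as a log2 fold change from edgeR (points) with its 95% interval (bars) for LP minus NP in males (n = 5 and 5), LP minus NP in females (n = 5 and 3), the diet effect in females minus that in males, and males minus females. All intervals cross 0 except those of *Ier2* for diet in males (0.0025 to 0.77) and *Ier3* between the sexes (-0.96 to -0.096); *Fosb*, and *Atf3* wherever females enter, were not tested for low counts.

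The second comparison sets the 10 males against the 8 females, over both diets. Of the 8 members tested, 7 were lower and 1 was higher in males, and 0 were called with edgeR, beside 7.22% of 12665 genes called higher and 11.5% called lower in males. The median difference was -0.16 for the members and -0.051 for all genes. *Ier3* was lowest relative to females, with a log2 difference of -0.53 (SE 0.20), an unadjusted p of 0.0194, and an adjusted p of 0.0501 in edgeR, just beyond the threshold. It was the only 1 of 8 with an unadjusted p under 0.05, beside 46.9% of all genes. By diet, the *Ier3* difference was -0.72 (SE 0.27) between NP males and NP females and -0.32 (SE 0.27) between LP males and LP females.

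Several alternatives moved *Ier3* past the threshold. Without LP females 1 and 2 and NP female 3, edgeR gave *Ier3* a difference of -0.73 (SE 0.22, adjusted p = 0.0154) and *Btg2* one of -0.73 (SE 0.24, adjusted p = 0.0294). That makes 2 of 9 members called lower in males, beside 11.6% of the 12949 genes tested in that fit. *Jun* passed the adjusted p there, at 0.0491 in edgeR, but at -0.40 (SE 0.15) was short of 1.5-fold. *Ier3* was also called without LP male 2 (-0.59), without LP male 4 (-0.60), or without NP female 3 (-0.65), whereas without NP female 2 it was at -0.39 with an adjusted p of 0.153. For *Fos*, *Egr1*, and *Junb* the male minus female differences were -0.17 (SE 0.49), -0.15 (SE 0.46), and -0.07 (SE 0.31).

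The pattern between single libraries was wider than the group differences. LP male 4 and LP female 4 were above the median library for 10 of 10 members, and LP female 1, NP male 1, and NP male 3 for 0 of 10. NP male 2 was above the median for 9 of 10, while LP male 1 and LP male 3, of the same group as LP male 4, were above it for 2 of 10. The summed CPM of the 10 genes was 162, 184, 155, 407, and 224 in LP males 1 to 5 and 132, 253, 153, 180, and 140 in NP males 1 to 5. It was 113, 185, 320, 390, and 265 in LP females 1 to 5 and 235, 283, and 181 in NP females 1 to 3. High and low kidneys occurred in both sexes and both diets.

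**Figure D3:**
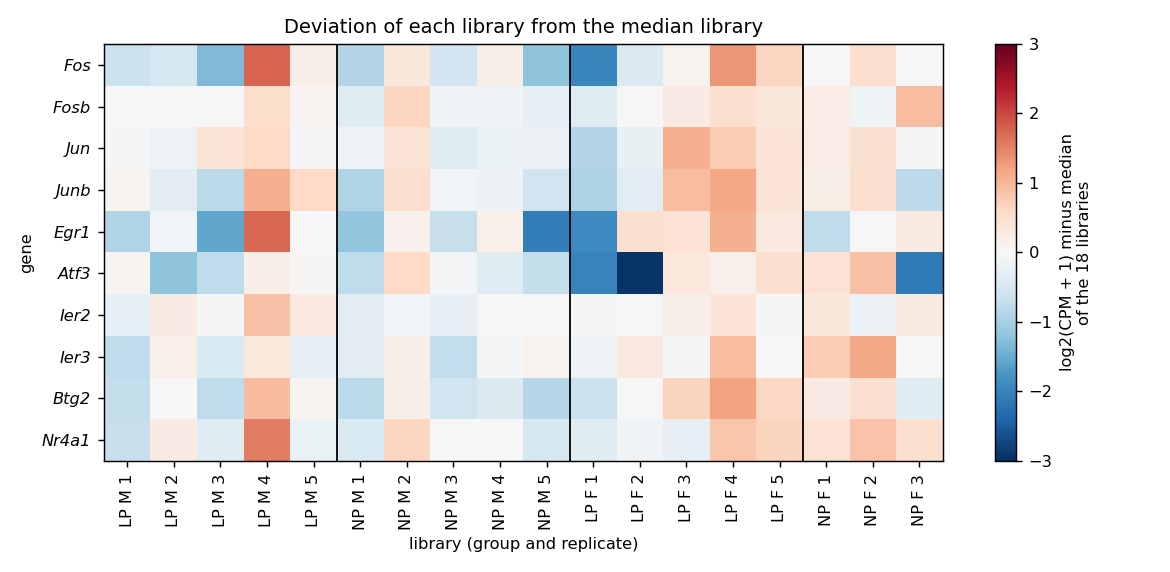
Deviation of each library (columns, by group and replicate) from the median of the 18 libraries for each gene (rows), as log2(CPM + 1), on a color scale from -3 to 3. LP male 4 and LP female 4 are above the median for all 10 genes, and LP female 1 is above it for 0 of 10.

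Spread was measured as the SD of log2(CPM + 1) after group means were removed, over the 18 libraries. The median SD of the 8 members that passed the minimum count was 0.608, and that of all 12665 such genes was 0.271. All 8 were above the median gene and 5 were above the 90th percentile of 0.501. *Egr1* had the widest spread of the 8, 1.05, which exceeded that of 99.2% of genes, followed by *Fos* at 0.989 and *Junb* at 0.722. *Nr4a1* was at 0.613, *Btg2* at 0.604, *Jun* at 0.488, and *Ier3* at 0.445. *Ier2* stood near the middle of all genes at 0.281, above 53.2% of them. *Atf3*, which missed the minimum count, had an SD of 1.13 over all libraries, with 1.59 in females and 0.589 in males. Without LP male 4, the members' median SD was 0.512, with 7 of 8 above the median gene and 4 above the 90th percentile. Without LP females 1 and 2 and NP female 3 it was 0.550 beside 0.233 for all genes.

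**Figure D4:**
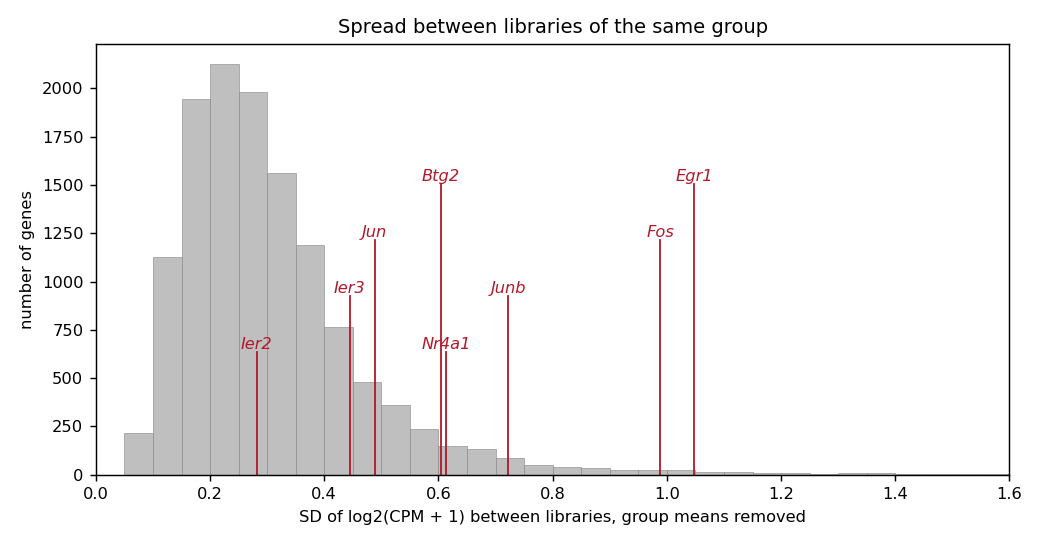
Number of genes (gray bars, 12665 genes) by their SD of log2(CPM + 1) between libraries with group means removed, over 18 libraries, with the 8 immediate early genes that passed the minimum count marked in red (line heights have no meaning). *Egr1* (1.05) and *Fos* (0.989) lie far in the right tail and *Ier2* (0.281) lies near the median gene (0.271).

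Members varied together. Over the 10 males, with diet means removed, 44 of the 45 pairs of members had a positive Pearson's r, with a median of 0.669. The closest pair was *Fos* and *Egr1*, with r = 0.963 and Spearman's rho = 0.976 (permutation p = 2.0e-05 and 5.0e-05, adjusted over 45 pairs to 0.0009 and 0.00225), and r was 0.934 without the 2 libraries farthest from the median of *Fos*. *Btg2* and *Nr4a1* followed with r = 0.937 and rho = 0.891 (permutation p = 0.00018 and 0.0013, adjusted to 0.0027 and 0.0146), and r = 0.784 without 2 libraries. By Pearson's r, 17 of the 45 pairs in males had an adjusted permutation p under 0.05, and by Spearman's rho, 19 did. *Jun* was the exception among the abundant members, with a median r of 0.374 to the other 9 genes in males and 0 pairs that passed. *Atf3* and *Ier3* gave the lowest r, -0.162.

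Part of this relation rested on the most extreme kidneys, with LP male 4 left out of most pairs. For each pair, the 2 libraries farthest from the median of the gene named earlier in the set were left out. LP male 4 was kept where the earlier gene was *Atf3* or *Ier3*. The median r in males was then 0.367, and 34 of 45 pairs stayed positive. *Jun* and *Junb* went from r = 0.277 to -0.745 and *Fos* and *Jun* from 0.374 to -0.600, so the sign of both pairs depended on LP male 4 and NP male 2, the libraries left out. *Junb* and *Atf3* had r = 0.836 before and 0.885 without LP males 3 and 4, with NP male 2 kept. Over the 8 females, 44 of 45 pairs were positive with a median r of 0.617, and *Junb* and *Btg2* were closest at 0.974. The exact permutation test gave an adjusted p under 0.05 for 7 of the 45 pairs by Pearson's r and 2 by Spearman's rho. These values take in the difference between the 3 libraries that stood apart and the other 5. Over the other 5 females alone, too few for a test here, 34 of 45 pairs were positive with a median r of 0.325.

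**Figure D5:**
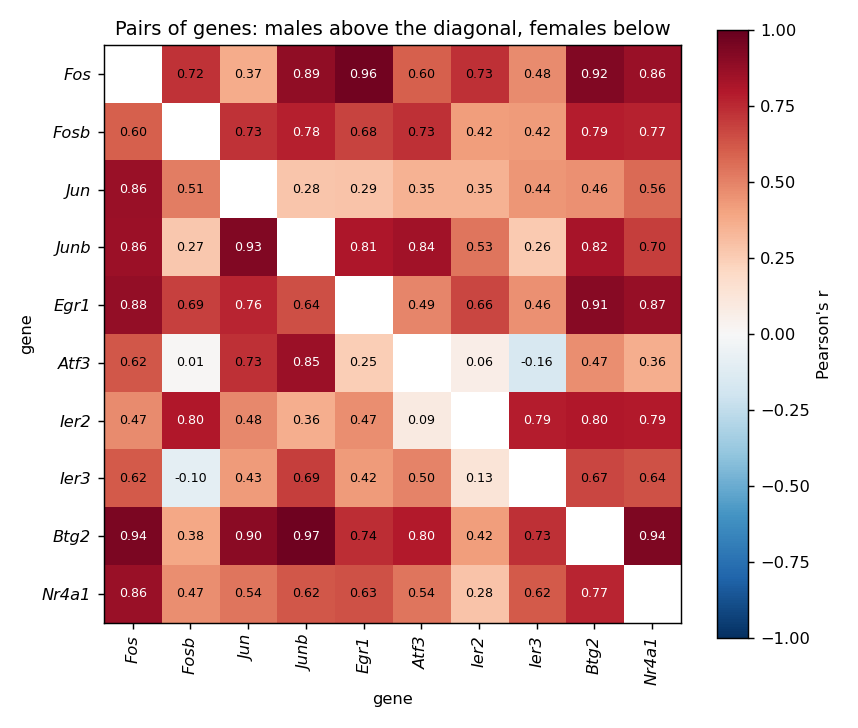
Pearson's r between each pair of immediate early genes across kidneys, with diet means removed, over 10 males (above the diagonal) and 8 females (below the diagonal), on a color scale from -1 to 1. In males r reaches 0.963 for *Fos* and *Egr1* and falls to -0.162 for *Atf3* and *Ier3*, and in females it reaches 0.974 for *Junb* and *Btg2*.

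Promoters of 5 members are shown because they carry the core of the cAMP response element, TGACG, which CREB and ATF proteins are known to bind. A relation of this core to how the members varied together was not tested. The bases just before the start of 5 members follow, from RefSeq on GRCm38.p6, an older build than that of the gene positions above, with TGACG on either strand in capitals (CGTCA where it lies on the other strand, and joined where both meet).
Fos, chr12:85473715-85473889, plus strand: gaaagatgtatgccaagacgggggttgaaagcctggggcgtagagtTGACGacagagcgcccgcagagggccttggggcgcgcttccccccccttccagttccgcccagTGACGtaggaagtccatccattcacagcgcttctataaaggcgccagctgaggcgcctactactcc
Junb, chr8:84978749-84978923, minus strand: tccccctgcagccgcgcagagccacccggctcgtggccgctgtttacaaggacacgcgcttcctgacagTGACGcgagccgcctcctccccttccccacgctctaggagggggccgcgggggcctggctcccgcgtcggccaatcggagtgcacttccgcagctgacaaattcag
Btg2, chr1:134079156-134079330, minus strand: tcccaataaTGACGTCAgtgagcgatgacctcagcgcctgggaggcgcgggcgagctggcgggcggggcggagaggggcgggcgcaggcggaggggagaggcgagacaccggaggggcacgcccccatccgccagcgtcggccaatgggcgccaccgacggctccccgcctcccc
Nr4a1, chr15:101266671-101266845, plus strand: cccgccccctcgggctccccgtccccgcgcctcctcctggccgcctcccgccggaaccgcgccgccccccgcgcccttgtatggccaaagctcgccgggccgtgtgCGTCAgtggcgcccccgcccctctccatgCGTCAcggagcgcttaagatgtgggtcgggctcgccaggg
Atf3, chr1:191183334-191183508, minus strand: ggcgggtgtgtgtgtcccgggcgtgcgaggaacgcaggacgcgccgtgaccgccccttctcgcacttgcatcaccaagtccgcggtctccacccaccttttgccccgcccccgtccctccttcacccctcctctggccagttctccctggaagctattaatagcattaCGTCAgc
Of the 10 members, 8 were in the promoter table, *Egr1* and *Ier2* being the others. TGACG was found on either strand in 6 of the 8, namely *Fos*, *Fosb*, *Junb*, *Atf3*, *Btg2*, and *Nr4a1*, and in 20.8% of 32851 promoter windows of 250 bases before to 50 after the start. The full palindrome TGACGTCA, which contains TGACG, was found in 1, *Btg2*, beside 1.79% of windows. A TATAAA was found in *Fos*, at position -33 from the start, and in *Junb*, at position 0 and so not upstream of the start, beside 13.6%. The ETS core CCGGAA was found in *Nr4a1*, beside 14.9%. Neither the AP-1 element TGANTCA, found in 7.81% of windows, nor the CArG box of serum response factor, found in 1.63%, occurred in the windows of the 8. Bases farther from the start were not searched, nor were *Egr1* and *Ier2*, so these genes may carry such elements. These are matches of letters and no binding was measured.

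Transcripts of this class are known for short half-lives, set in part by AU-rich elements in the 3′ UTR. The AU-rich core TTATTTAT was found in 2 of the 10 members, *Fos* and *Atf3*, beside 16.1% of the 11733 tested genes with a 3′ UTR. The 30 bases around it, from the GENCODE vM39 transcripts, are shown with the core in capitals.
Fos, bases 644 to 673 of the 3′ UTR: gtgttttcaatTTATTTATtaagatggatt
Atf3, bases 1115 to 1144 of the 3′ UTR: gaaaatattacTTATTTATcccagtattcc
The shorter pentamer ATTTA occurred at a median of 2.89 per kilobase of 3′ UTR in the members and 1.35 in all tested genes. *Ier3* had 5 in 613 bases, the densest at 8.16 per kilobase, and *Ier2* had 0. A relation of these counts to the spread between kidneys was not tested. Members were also short genes, with a median span of 4.71 kb against 27.1 kb, and 7 of 10 spanned under 10 kb against 19.4% of 11811 coding genes tested. *Atf3* was the longest at 47.7 kb.

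Other early response genes were taken from a list of 44 outside the members, of which 38 were tested in males and 36 in the other comparisons. None of them was called for diet in males, in females, or in the interaction. Between males and females 1 of 36 was called higher and 3 lower in males, beside 7.22% and 11.5% of all genes. *Dusp4*, a phosphatase that turns off ERK, was higher in males with a log2 difference of 0.81 (SE 0.14). *Sgk1*, a kinase induced by corticosteroids, fell by 1.83 (SE 0.28), *Gadd45a*, a stress gene of the DNA damage response, by 0.80 (SE 0.21), and *Per1*, a clock gene, by 0.81 (SE 0.23). *Sik1*, a kinase of the cAMP pathway, passed the adjusted p in edgeR (0.00145) with a difference of -0.49 (SE 0.10), which is under 1.5-fold. *Spry4* and *Errfi1*, feedback inhibitors of receptor signaling, were at 0.38 (SE 0.17) and 0.34 (SE 0.16) with adjusted p-values of 0.0894 and 0.0978 in edgeR. Without LP females 1 and 2 and NP female 3, 38 of the list were tested, and 1 was called higher and 13 lower in males, beside 7.59% and 11.6% of the 12949 genes tested. In that fit *Dusp4* was at 0.69 (SE 0.16), *Sgk1* at -2.20 (SE 0.16), *Per1* at -1.02 (SE 0.20), *Gadd45a* at -0.84 (SE 0.17), and *Sik1*, now called, at -0.60 (SE 0.11).

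Of 24 genes upstream of the members, kinases of the MAP kinase cascade and factors that bind their promoters, 24 were tested and 0 were called for diet. Between the sexes 2 were called higher and 1 lower in males, again beside 7.22% and 11.5% of all genes. Among these, *Braf*, a kinase at the start of the cascade, was higher in males by 0.83 (SE 0.15) on the log2 scale, and *Elk3*, an ETS factor, fell by 0.75 (SE 0.22). Without LP females 1 and 2 and NP female 3, 2 were called higher and 0 lower, with *Braf* at 0.62 (SE 0.14) and *Elk3*, at -0.49 (SE 0.18), short of 1.5-fold. *Mapk14*, the p38 kinase, was at 0.39 (SE 0.08), *Mapk3*, which encodes ERK1, at -0.47 (SE 0.09), and *Map2k1*, its activating kinase, at -0.35 (SE 0.08), each past the adjusted p and under 1.5-fold. Of 12 genes of AU-rich element binding and deadenylation, 12 were tested, 0 were called for diet, and 1 was called between the sexes. That gene was *Zfp36l1*, which binds AU-rich elements and fell by 0.64 (SE 0.17) in males. *Tob1* was at 0.48 (SE 0.09), *Cnot6* at 0.34 (SE 0.08), *Elavl1* at 0.28 (SE 0.08), *Hnrnpd* at -0.34 (SE 0.09), and *Btg1* at -0.50 (SE 0.20), all short of the threshold for a call. Without the 3 females, 3 of the 12 were called lower, with *Zfp36l1* at -0.91 (SE 0.12), *Btg1* at -0.80 (SE 0.15), and *Zfp36* at -0.65 (SE 0.19).

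Outside the members, the genes most like them were ranked by r with the mean z score of the 10 members over 18 libraries, group means removed, as a description. *Dusp5*, an ERK phosphatase induced by the same cascade, was closest at r = 0.885, with 0.933 in males and 0.865 in females. *Elovl6*, which elongates fatty acids, followed at 0.863, then *Acp3* at 0.860, *Arl15* at 0.854, *Mical3* at 0.845, and *Bmpr1b* at 0.844. *Ephb6* at 0.841, *Zfp36*, which encodes the AU-rich element binding protein tristetraprolin, at 0.838, *Acly*, the cytosolic source of acetyl-CoA, at 0.834, and *Rasd1* at 0.829 completed the 10. Of the 36 other early response genes ranked, 35 had a positive r, with a median of 0.570, while the median of all 12665 genes was -0.028. The 24 upstream genes had a median of 0.211, with 13 positive. Depth and marker levels differed between the libraries, and their part in each r was not tested. *Sgk1* had r = 0.971 in females and 0.491 in males. Its r was 0.543 over all libraries but LP females 1 and 2 and NP female 3. Over the 15 libraries without LP females 1 and 2 and NP female 3, *Dusp5* was still closest at 0.913 and *Bmpr1b* was next at 0.887. The 10 genes named ranged from 0.705 to 0.913 there, and 2 of them were among the 10 closest. Of the other early response genes, 31 of 36 had a positive r, with a median of 0.435, and the upstream genes had a median of 0.275, with 22 positive, beside a median of 0.013 for all genes.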

How the data were processed

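Kidney RNA of 18 CD-1 mice was analyzed as 1 library per mouse. The authors deposited raw counts of reads per gene: they discarded low-quality reads, trimmed adapters, and counted reads with STAR on GRCm39 and GENCODE vM36. The version of STAR is not given in the sources used here. The library was non-directional, so the unstranded column was used. Depth was 14050486 to 23562411 reads per library, which leaves *Fosb* at 21 counts or fewer, and intervals and floors on counts cover counting error only. Gene positions are from GENCODE vM39. CPM are counts scaled to 1e6 reads on genes.

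Groups were compared with edgeR 4.0.16 (R 4.3.3; TMM, quasi-likelihood test, Benjamini-Hochberg adjustment over all genes that reached 10 counts in each library of the comparison). A call needs an adjusted p under 0.05 and at least 1.5-fold. DESeq2 1.42.0, limma 3.58.1, other filters, a replicate block, and left-out libraries were alternatives. Single genes were also tested by exact permutation of diet labels, on log2 of counts over DESeq2 size factors plus 1, and pairs with 100000 resamples in males. The code was tested on simulated data. All 10 members are named. From the other lists the named genes are those past an adjusted p of 0.05 for diet, the 3 with the smallest adjusted p in each direction between the sexes, calls between the sexes, and the 10 most like the members, except a gene that is not reported here. Members and lists were chosen with earlier results of these data known. The labels do not say that mice with the same replicate number are paired, so no fit in the main comparisons used these numbers.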

Additional observations from a re-analysis of the deposited data

Results flagged for a closer look

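In groups of 5 libraries, a single library was set against the rest by the gap to its nearest neighbor divided by the range of the group (Dixon's ratio, on CPM). Of 30 combinations of gene and group tested, 6 passed the 95% critical value of 0.71. For normally distributed values chance alone flags about 1 in 20, but the CPM of these genes were not shown to be normal. All 6 were the highest library of their group, and a log2 scale, which draws high values closer to the rest, was not tried. The combinations are not independent, since members varied together. In LP male 4, *Fos* was at 25.5 CPM with the next LP male at 7.83 CPM (ratio 0.756), *Egr1* at 67.3 CPM with the next at 19.6 CPM (0.779), *Nr4a1* at 19.4 CPM with the next at 7.39 CPM (0.748), and *Fosb* at 0.872 CPM, from 19 counts, with the next at 0.378 CPM (0.829). In NP male 2, *Jun* was at 62.0 CPM with the next NP male at 41.4 CPM (0.765) and *Fosb* at 1.01 CPM, from 17 counts, with the next at 0.196 CPM (0.806). LP male 4 also had the highest sums among males of 6 adipocyte markers, 90.8 CPM, of 6 fibroblast markers, 282 CPM, of 6 smooth muscle and pericyte markers, 252 CPM, of 6 tubular injury markers, 765 CPM, of 7 endothelial markers, 407 CPM, of 5 blood markers, 75.2 CPM, of the 24 upstream genes, 1449 CPM, and of the 12 decay genes, 978 CPM, and their part in its early gene levels was not tested. Over the 44 other early response genes, LP male 4 summed to 2018 CPM. That was below NP male 2 at 2349, LP male 1 at 2181, and NP male 3 at 2066 CPM. LP male 4 was also not the highest male for the remaining lists, such as the interferon, glucocorticoid, and heat shock genes. No NP female group of 3 was tested by Dixon's ratio.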

How the results depend on the processing

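Of 321 results of single members other than those that left out 1 library, 296 kept their sign and their side of the threshold. Of the rest, 22 changed sign and 3 passed the threshold, and none of the sign changes was past it in either fit. The 321 include the main fits judged by the adjusted p alone, where the sign could not change. In males, *Ier3* for diet was at 0.025 with limma-voom. In females, with the replicate block, *Fos* was at -1.22, *Jun* at -0.33, *Junb* at -0.17, *Egr1* at -0.24, and *Btg2* at -0.19, and *Ier2* was at 0.00098 with no filter and at 0.18 without LP females 1 and 2 and NP female 3. For the interaction, limma-voom gave *Fos* 0.15, *Jun* 0.16, *Egr1* 0.67, and *Btg2* 0.073, the fit without those 3 females gave *Jun* 0.26, *Egr1* 0.27, and *Btg2* 0.073, and the replicate block gave *Junb* -0.54. Between the sexes, *Ier2* was at -0.0027 with limma-voom, -0.0078 with the replicate block, and -0.15 in NP mice alone, and LP mice alone gave *Fos* 0.10, *Egr1* 0.033, and *Nr4a1* 0.21. The number of members called was 0 in each diet and interaction alternative. Between the sexes it was 1 with the replicate block (*Ier3*, -0.59, adjusted p 0.00622 in edgeR) and 2 without the 3 females, and 0 to 1 when 1 library was left out.

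When 1 library was left out, the log2 difference for diet in males ran from -0.21 to 0.94 for *Fos*, -0.22 to 0.19 for *Atf3*, -0.17 to 0.089 for *Ier3*, and -0.24 to 0.63 for *Nr4a1*. In females it ran from -0.35 to 0.45 for *Fos*, -0.074 to 0.37 for *Jun*, and -0.20 to 0.056 for *Ier2*. For the interaction it ran from -1.05 to 0.37 for *Fos*, -0.34 to 0.11 for *Jun*, -0.28 to 0.30 for *Junb*, -0.66 to 0.44 for *Egr1*, and -0.42 to 0.20 for *Btg2*. Between the sexes it ran from -0.63 to 0.082 for *Fos*, -0.23 to 0.061 for *Junb*, -0.035 to 0.11 for *Ier2*, and -0.65 to -0.39 for *Ier3*.

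Over all genes, 5 were called for diet in males, against 9 with no filter, 15 with DESeq2, 2 with the replicate block, 1 with all 4 groups in 1 model, and 2 to 6 without 1 library. In females 0 were called, against 3 with no filter, 9 with DESeq2, 2 with all 4 groups, 1 without the 3 females, and 0 to 2 without 1 library. For the interaction 2 were called, against 4 with DESeq2, 7 with limma-voom, 0 with the replicate block, 0 without the 3 females, and 0 to 4 without 1 library. Between the sexes 2370 were called, against 4900 by the adjusted p alone and 2218 to 2616 without 1 library. The cause of these changes was not tested. After group means were removed, LP and NP males with the same replicate number had correlations of -0.297 to 0.326. Those of LP and NP females were -0.606 to -0.389. Between the sexes they were -0.267 to 0.0019 in LP mice and -0.275 to 0.485 in NP mice. Mice with unequal numbers were not compared, so whether equal numbers mark a shared litter or batch was not tested.

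The members' median SD was 0.608, 0.603 with TMM library sizes, and, in alternatives chosen after seeing the data, 0.654 with a pseudocount of 0.1, 0.550 without the 3 females, and 0.512 without LP male 4, with 0.512 to 0.631 over all left-out libraries. The median r of pairs, without the 2 libraries farthest from the median of the earlier-named gene, was 0.367 in males and 0.463 in females. Low counts limit *Fosb*, which had 0 to 21 per library, and *Atf3* missed the minimum count in LP female 2 alone. The 3 NP females limit each female comparison: the smallest p of the exact permutation test there is 0.0179, against 0.00794 in males.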
